A study of Mus musculus with 22 samples.

Results

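Red blood cells that circulate through a brain carry messenger RNA of their own, and the genes described here are those of the oxygen carrier hemoglobin and of the cells that hold it. The genes were 9 in number, of the 20129 gene symbols named on the array. They were listed by name and by no threshold on their values, with earlier results of these data known, and were the adult globins Hba-a1, Hba-a2, Hbb-bt and Hbb-bs, the embryonic globins Hbb-y, Hbb-bh1 and Hba-x, and the red cell genes Alas2 and Slc4a1. Each was read from 1 probe that carries its RefSeq identifier. Where a gene had several probes, that with the highest median over the 22 arrays was taken, which concerned Hbb-y with 2 probes.

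The RNA came from 3 whole brains, each of 1 male mouse of the inbred strain C57BL/6J and each cut along another body axis into slabs called fractions. The coronal brain gave 10 fractions and the horizontal and sagittal brains gave 6 each, and the labels name no transgene or treatment. The mice were 7 days old by the titles of the series and samples and by the study, although the age label of the samples reads 3 days. A slab was 100 slices of 5 µm, that is 500 µm per the labels, while the study's methods name a thicker one, and positions are therefore given as fraction numbers. Coronal fraction 10 pooled slabs 10 and 11, sagittal fraction 1 pooled slabs 1 and 2, and sagittal fraction 6 pooled slabs 7 to 9. Where fraction 1 lay is given by no label, and whether blood was washed from the vessels is not given in the sources used here. A level is log2 of the processed intensity of a probe minus the 75th percentile of its array. Each fraction was measured once on 1 array, so no level has a replicate.

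In the mouse, the first red cells arise in the yolk sac and carry embryonic globins, and those formed later in the fetal liver and bone marrow carry adult globins. Hemoglobin joins alpha-like chains, encoded by Hba-x, Hba-a1 and Hba-a2 in 1 cluster, with beta-like chains, encoded by Hbb-y, Hbb-bh1, Hbb-bs and Hbb-bt in another. Mature red cells have lost their nucleus, and the globin RNA in blood is that left in young red cells, the reticulocytes. Alas2 is the red cell enzyme for the first step of heme synthesis, and Slc4a1 is the anion exchanger known as band 3 of the red cell membrane.

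The stretches of DNA just before the transcription starts of 3 adult and 2 embryonic globin genes are shown because adult and embryonic members are read apart below. They are the 110 bases before the start, written in the direction of the gene, from RefSeq on GRCm38.p6. Hba-a1 lies at chr11:32283562-32283671 on the plus strand, Hbb-bt at chr7:103813924-103814033 and Hbb-bs at chr7:103827929-103828038 on the minus strand, Hbb-y at chr7:103853208-103853317 on the minus strand and Hba-x at chr11:32276490-32276599 on the plus strand. Capitals mark 5 short motifs, searched on either strand: the CAC box spelled CACCC, the CAAT box spelled CCAAT, a longer TATA form spelled ATATAA, a shorter TATA form spelled ATAAA, and a GATA site spelled GATAA.
Hba-a1: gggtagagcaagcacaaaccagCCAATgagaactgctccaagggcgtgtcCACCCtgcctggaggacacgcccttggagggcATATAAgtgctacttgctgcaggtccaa
Hbb-bt: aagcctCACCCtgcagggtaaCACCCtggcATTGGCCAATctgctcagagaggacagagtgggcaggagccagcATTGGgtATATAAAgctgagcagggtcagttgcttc
Hbb-bs: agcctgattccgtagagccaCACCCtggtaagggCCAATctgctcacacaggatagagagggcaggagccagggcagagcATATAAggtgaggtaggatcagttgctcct
Hbb-y: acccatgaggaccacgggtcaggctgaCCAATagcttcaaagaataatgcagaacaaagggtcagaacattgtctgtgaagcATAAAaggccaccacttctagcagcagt
Hba-x: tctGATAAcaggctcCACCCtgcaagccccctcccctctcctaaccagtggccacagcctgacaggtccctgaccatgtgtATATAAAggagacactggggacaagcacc

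All 3 adult genes held the CAC box, the CAAT box and the longer TATA form in this window. Hbb-y held the CAAT box and the shorter TATA form but no match to the CAC box, and Hba-x held the CAC box, both TATA forms and the GATA site but no match to the CAAT box. Of 32851 RefSeq promoter windows of the same length, 29.6% held the CAC box, 20.2% the CAAT box, 4.09% the longer and 18.9% the shorter TATA form, and 9.43% the GATA site. The TATA forms overlap in Hbb-bt and Hba-x, where a single run counts for both. Hba-a2, at chr11:32296382-32296491, shares an unbroken run of nearly its whole window with Hba-a1 and is not printed. These matches describe the letters and are not measurements of binding. Hba-a1 and Hba-a2 are nearly identical genes, and so are Hbb-bs, Hbb-bt and the sequence named Hbb-b2. A probe named for one can therefore bind RNA of another, and the members of each pair are uncertain as separate genes.

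The 22 arrays lay on 4 slides, and the share of the 55600 probes detected well above background ran from 53.2% to 75.5%. On 7 arrays, coronal fractions 1 and 2, horizontal 1, 2 and 3 and sagittal 1 and 3, the slope of the spike-in controls was outside the range set by the scanner software, at 0.773 to 0.891 against 0.949 to 1.07 on the other 15. On those 7 arrays the spike-in a107, an RNA added in a known amount, lay between -2.09 and -0.24 on the log2 level scale, and on the other 15 between -6.11 and -3.27. All 7 neuron markers were well above background on all 22 arrays. Every member was spotted once. The SD between spots of the 399 probes with at least 8 spots had a median over arrays of 0.0647 log2 for those above level 0 and 0.339 for those below level -3. All 9 members were followed in every fraction, and 8 passed the filter of being above background in at least 1 fraction of each series, Hba-x being the exception.

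The question along each series was whether the level of a red cell gene changed with the position of the fraction. The adult globins were well above background on all 22 arrays. In the coronal series they were high in fractions 1 to 4 and low in fractions 5 to 10. Hba-a1, an adult alpha chain, had levels of 5.94, 5.77, 5.60 and 5.36 in coronal fractions 1 to 4 and of 4.61, 4.00, 3.97, 4.35, 4.07 and 4.01 in fractions 5 to 10. The lowest of the first 4 fractions was above the highest of the last 6, and the whole range was 3.91-fold. Hba-a2, the other adult alpha chain, had levels of 8.09, 7.76, 7.98 and 7.63 and then of 6.86, 6.53, 6.55, 6.75, 6.58 and 6.81, a range of 2.96-fold. The same step was present after fraction 4.

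The adult beta chains took the same course. Hbb-bt had levels of 5.31, 4.90, 5.35 and 4.70 in coronal fractions 1 to 4 and of 3.71, 3.25, 3.18, 3.75, 3.67 and 3.99 in fractions 5 to 10. Hbb-bs had levels of 2.46, 2.13, 2.45 and 1.63 and then of 0.43, 0.25, 0.10, 0.66, 0.30 and 0.62. The step again lay between fractions 4 and 5, and the ranges were 4.48-fold for Hbb-bt and 5.13-fold for Hbb-bs. The non-member probe of Hbb-b2 ran from 3.39 in fraction 1 to 0.87 in fraction 6.

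Alas2 had levels of 0.21, -0.25, -0.11 and -0.39 in coronal fractions 1 to 4 and of -0.99, -1.61, -1.64, -1.46, -1.59 and -1.33 in fractions 5 to 10, a range of 3.58-fold. Slc4a1 had levels of -1.80, -2.004, -1.87 and -2.22 and then of -2.40, -2.93, -2.60, -2.25, -2.52 and -2.38. For Slc4a1 the 2 sets of fractions nearly met, at -2.22 in fraction 4 and -2.25 in fraction 8. Since each fraction is a bulk sample, fewer red cells and less RNA per red cell cannot be told apart in any of these levels.

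**Figure D1:**
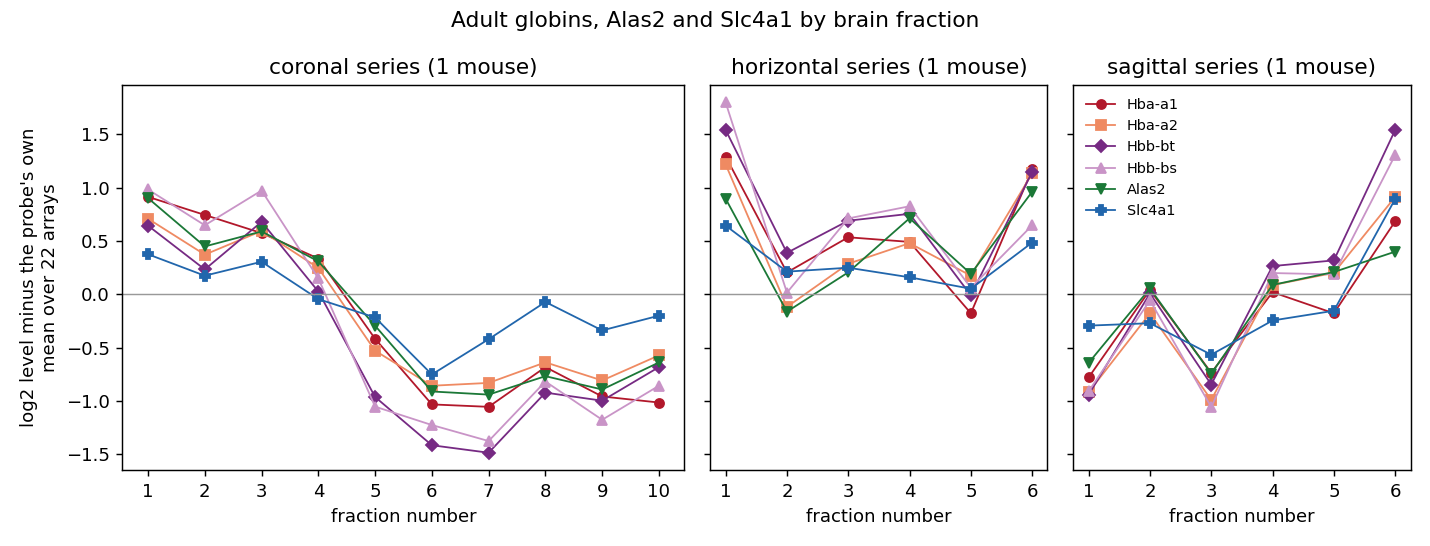
Level of the 4 adult globins, Alas2 and Slc4a1 in each fraction of the 3 series, as log2 minus the mean of the same probe over 22 arrays, against fraction number. Each point is 1 array without a replicate. For each gene the points of coronal fractions 1 to 4 lie above those of fractions 5 to 10, and all 6 are highest at fraction 6 of the sagittal series.

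Of the 8 members tested, 6 changed along the coronal series and all 6 fell with fraction number (limma, moderated F test of a linear and a quadratic term, Benjamini-Hochberg adjusted). Over all 39621 probes tested, 19.8% changed along this series, 7.43% with a falling and 12.4% with a rising linear term, and 38.8% had an unadjusted p under 0.05. From the first to the last fraction, the fitted linear change on the log2 scale was -2.24 ± 0.38 (SE) for Hba-a1 (adjusted p 0.00378, limma). For the others it was -2.37 ± 0.51 for Hbb-bs (adjusted p 0.00927, limma), -1.90 ± 0.36 for Alas2 (0.00568), -1.84 ± 0.46 for Hbb-bt (0.0143) and -1.63 ± 0.36 for Hba-a2 (0.0125). Slc4a1 fell least, by 0.68 ± 0.21 with an adjusted p of 0.0320 in limma. The median linear change of all probes tested was -0.14. Hbb-y (-0.29 ± 0.72, adjusted p 0.688) and Hbb-bh1 (-1.40 ± 0.75, adjusted p 0.182) did not pass the limma test.

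The coronal fall of Slc4a1 was the least secure of the 6. It passed in 17 of the 22 fits that left out 1 fraction, and in 6 of the 15 other alternatives. Its linear change was -0.35 with quantile normalization and -0.81 without scaling, with adjusted p-values of 0.673 and 0.148 in limma. With arrays centred on their median, 3 of the 8 members passed, namely Hba-a1, Hbb-bs and Alas2, and with the coronal series fitted alone 2 passed. Of all probes, 5672 passed with median centring and 634 with the series alone, against 7850 in the reported fit. The linear change of all 6 stayed negative under every scaling tried. Coronal fractions 1 and 2, at the high end, are arrays with the spike-in slope out of range. On the arrays in range the linear change of Slc4a1 was -0.35 (adjusted p 0.196, limma). The other 5, from -1.56 for Hbb-bs to -1.14 for Hba-a2, passed, as did 4133 of all probes. These changes run from fraction 3 to fraction 10, a shorter span, so their sizes are not compared with those on all arrays. Coronal fractions 1 and 3 to 8 shared slide 1. Within that slide the linear changes run from fraction 1 to fraction 8. They were -2.11 for Hba-a1, -2.33 for Hbb-bt, -2.57 for Hbb-bs, -2.08 for Alas2, -1.78 for Hba-a2 and -0.80 for Slc4a1. Alas2 alone passed, with an adjusted p of 0.0437 in limma, against 0.0568 to 0.0984 for the other 5. Of all probes, 2071 passed in that fit.

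In the sagittal series the levels were highest in fraction 6 for all 4 adult globins and for both red cell genes. Hbb-bt had levels of 3.73, 4.68, 3.82, 4.93, 4.99 and 6.21 in sagittal fractions 1 to 6. Hba-a2 had levels of 6.47, 7.21, 6.39, 7.47, 7.59 and 8.30, and Hba-a1 of 4.25, 5.07, 4.29, 5.05, 4.85 and 5.71. Fractions 1 and 3 were the lowest for each of these globins, and both are arrays with the spike-in slope out of range. Hbb-bs had levels of 0.57, 1.42, 0.42, 1.68, 1.67 and 2.78. Slc4a1 lay between -2.74 and -2.33 in the first 5 fractions and at -1.29 in fraction 6. Alas2 had levels of -1.34, -0.64, -1.44, -0.61, -0.49 and -0.30, with no such gap before fraction 6.

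Of the 8 members, 3 changed along the sagittal series, and all 3 rose, where 10.5% of all probes changed, 7.55% with a rising and 2.91% with a falling linear term, and 23.9% had an unadjusted p under 0.05. Slc4a1 rose by 1.09 ± 0.27 (SE) on the log2 scale (adjusted p 0.0104, limma), Hbb-bt by 2.28 ± 0.57 (0.0400) and Hba-a2 by 1.77 ± 0.45 (0.0466). Hbb-bs (2.06 ± 0.64, adjusted p 0.100), Hba-a1 (1.21 ± 0.48, 0.237) and Alas2 (1.00 ± 0.45, 0.339) had positive linear changes that did not pass the limma test. Without sagittal fraction 6 no member passed, and only 2 of all probes did. The linear changes of Slc4a1, Hbb-bt and Hba-a2 from fraction 1 to fraction 5 were then 0.11, 1.15 and 1.03. With arrays centred on their median, quantile normalized or not scaled, none of the 8 passed either. In those fits 1410, 1883 and 5490 of all probes passed, against 4145 in the reported fit. On the arrays with the spike-in slope in range no member passed, and 1 of all probes did. The linear changes there, from fraction 2 to fraction 6, were 1.14 for Slc4a1, 1.48 for Hbb-bt and 1.07 for Hba-a2. This span and that without fraction 6 are shorter than the series, so these sizes are not compared with those on all arrays. When each of the 22 fractions was left out in turn, Slc4a1 passed in 21 fits, Hbb-bt in 14 and Hba-a2 in 7. The linear changes under the 3 scalings were 1.16, 2.35 and 1.83 with median centring, 1.34, 1.72 and 0.58 with quantile normalization and 0.20, 1.39 and 0.88 without scaling, for Slc4a1, Hbb-bt and Hba-a2 in that order.

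In the horizontal series the adult members were highest at the 2 ends. Hba-a1 had levels of 6.32, 5.23, 5.56, 5.52, 4.85 and 6.20 in fractions 1 to 6. Hba-a2 had levels of 8.60, 7.27, 7.67, 7.86, 7.56 and 8.52, and Hbb-bt of 6.21, 5.06, 5.36, 5.42, 4.66 and 5.82. Fractions 1 and 6 were the top pair for these 3 genes. They were the top pair for Alas2 (0.20 and 0.27, against at most 0.02 between them) and for Slc4a1 (-1.53 and -1.69, against at most -1.93) as well. Hbb-bs was highest in fraction 1, at 3.28, but its level of 2.13 in fraction 6 lay among those of fractions 2 to 5, which ran from 1.49 to 2.30.

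None of the 8 members passed the horizontal test, where 6.57% of all probes did, 3.94% with a rising and 2.63% with a falling linear term. The lowest adjusted p was 0.140 in limma, for Hba-a2 and for Hbb-bh1, and at an unadjusted p under 0.05 the count of members was also 0, against 38% of all probes. The model has 1 curve per series with 13 residual degrees of freedom over all arrays. A change that the test misses is therefore not shown to be absent. Of all probes, 2604 passed along this series in the reported fit. Without horizontal fraction 1, an array with the slope out of range, 9 did, and on the arrays in range 13 did.

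**Figure D2:**
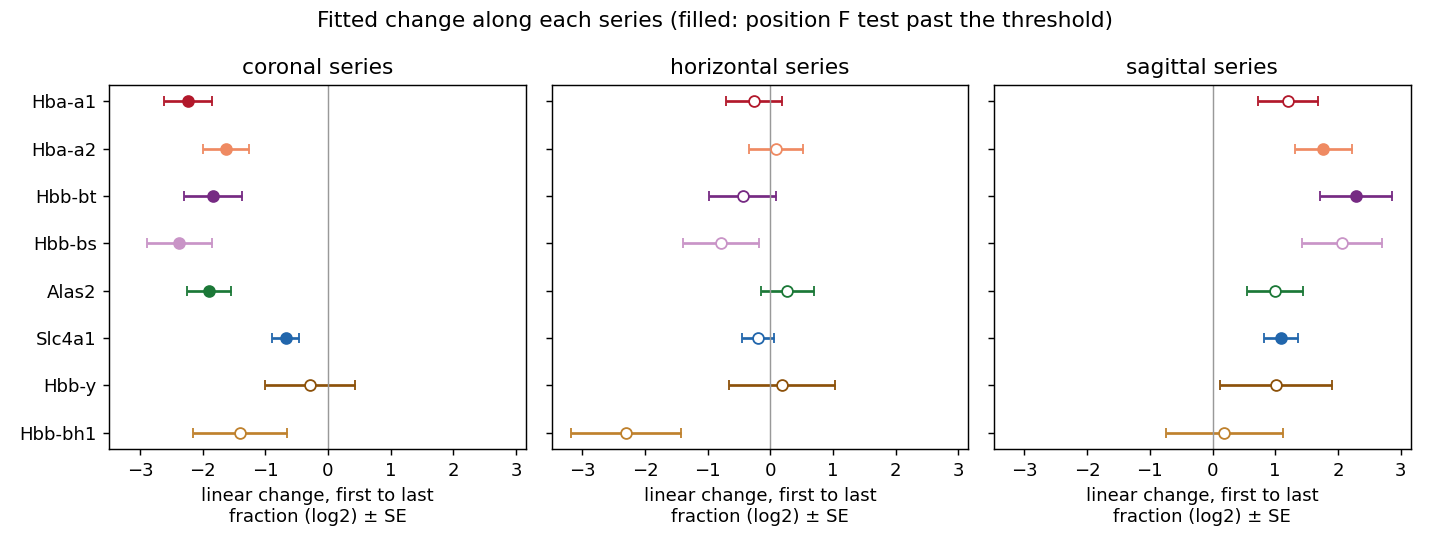
Fitted linear change from the first to the last fraction of each series, in log2 units with its SE as the bar, for the 8 members tested. Filled points passed the F test of position after adjustment over all probes. In the coronal series 6 points are filled and lie below 0, in the sagittal series 3 are filled and lie above 0, and in the horizontal series none is filled.

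The adult members moved together. Over the 22 arrays, Pearson r between pairs of adult globins ran from 0.930 to 0.969 over 6 pairs, and between an adult globin and Alas2 or Slc4a1 from 0.859 to 0.960 over 8 pairs. Within series, the median r over all 15 pairs of the 6 genes was 0.963 in the coronal, 0.863 in the horizontal and 0.940 in the sagittal series. These values are a description over arrays that share a labelling, a scaling and, within a series, an animal, and the alpha and beta copies can share probe signal. The alpha mean minus the beta mean of the adult globins varied between fractions by 1.16 log2, while the mean of the 4 adult globins varied by 2.65 log2, that is 6.27-fold. The mean of the 4 minus Alas2 varied by 1.16 log2 as well, and minus Slc4a1 by 1.58 log2.

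The embryonic globins were at or near the limit of detection. Hba-x, the embryonic alpha chain, was well above background on 0 of 22 arrays, with measured values between -7.55 and -5.86, so no change is given for it. Hbb-y, the embryonic epsilon-like beta chain, was well above background on 14 of 22 arrays, with 3 of 10 in the coronal, 5 of 6 in the horizontal and 6 of 6 in the sagittal series. Hbb-bh1, an embryonic beta-like chain, was well above background on 18 of 22, missing on coronal 4 and 9, horizontal 5 and sagittal 2.

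Hbb-bh1 had levels of -2.62, -1.998, -3.82, -4.76, -3.62, -4.13, -4.28, -3.29, -4.30 and -4.05 in coronal fractions 1 to 10. In the horizontal series they were -1.95, -1.70, -2.43, -3.47, -4.31 and -3.40, and in the sagittal series -2.86, -5.20, -3.05, -3.72, -3.37 and -3.44. Its 7 highest values of all lay on the 7 arrays with the spike-in slope out of range, from -3.05 to -1.70, and its values on the other 15 arrays ran from -5.20 to -3.29. The 2 sets of arrays did not overlap, but how many of all probes part them in this way was not counted.

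The level of Hbb-bh1 had an r of 0.823 with the spike-in a107 over 22 arrays, against values of 0.285 for Hba-a1, 0.131 for Hba-a2, 0.274 for Hbb-bt, 0.287 for Hbb-bs, 0.105 for Alas2 and 0.340 for Slc4a1. As a covariate beside the position terms, a107 had a coefficient of 0.45 ± 0.10 (SE) log2 per log2 unit for Hbb-bh1, with an adjusted p of 0.00432 in limma. The a107 term passed for 29.8% of all probes, and Hbb-bh1 was 1 of 8 members past it. An r with a107 above 0.8 was held by 16.1% of all tested probes, by 19.0% of the 4510 probes within 0.5 log2 of the median of Hbb-bh1 and by 37.4% of the 13806 that were not above background on some array. The non-member embryonic-like globin Hbb-bh2 had an r of 0.844 with a107 and was above background on 6 of the 7 arrays and on none of the 15. The share of all probes detected in that way was not counted either.

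**Figure D3:**
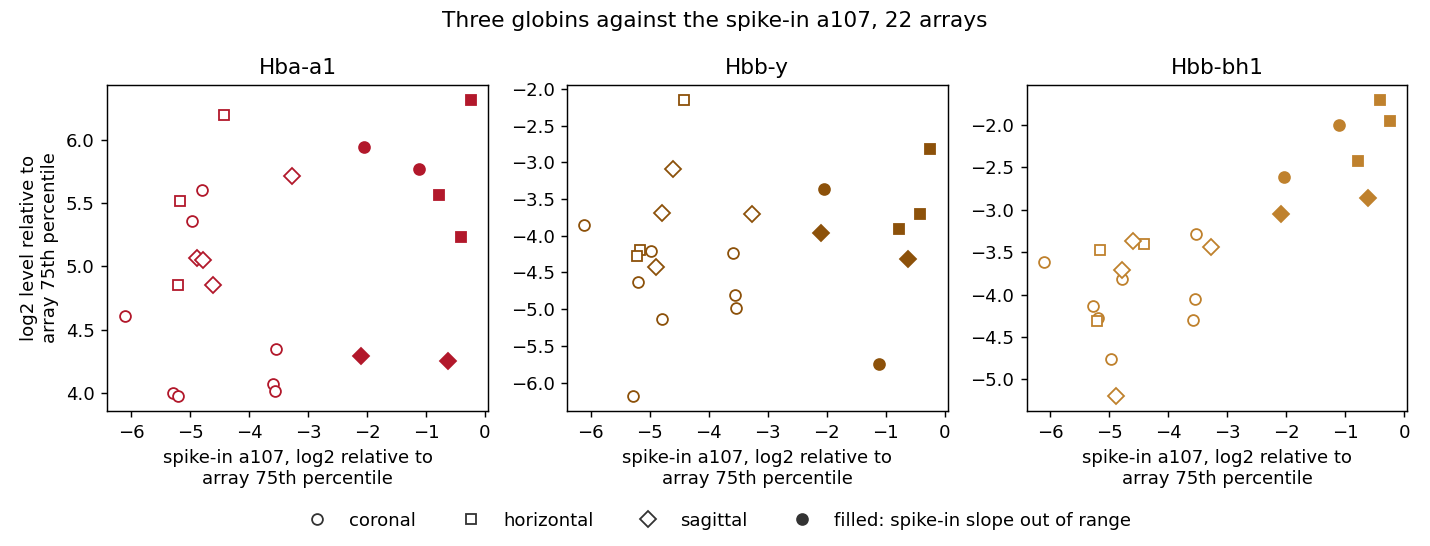
Log2 level of Hba-a1, Hbb-y and Hbb-bh1 on each of 22 arrays against the log2 level of the spike-in a107 on the same array, both relative to the array's 75th percentile. Marker shape gives the series and filled markers are the 7 arrays with the spike-in slope out of range. The filled markers are all above the open ones for Hbb-bh1 and are mixed with them for Hba-a1 and Hbb-y.

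Hbb-y took another course. Its levels were -3.37, -5.74, -5.14, -4.21, -3.86, -6.19, -4.63, -4.99, -4.24 and -4.81 in coronal fractions 1 to 10, and it was above background in fractions 1, 4 and 5. In the horizontal series the levels were -2.82, -3.70, -3.91, -4.20, -4.27 and -2.15, highest at the 2 ends as for most adult members. In the sagittal series they were -4.32, -4.43, -3.96, -3.69, -3.09 and -3.70, with the highest in fraction 5. Its r with a107 was 0.161. The other Hbb-y probe was above background on 12 arrays, had an r of 0.581 with a107 and was above background on all 7 arrays with the slope out of range, against 5 of the other 15. The probes of Hbb-y thus disagreed.

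Hbb-y had r values between 0.428 and 0.566 with the 6 adult members over 22 arrays, and within series between 0.115 and 0.352 in the coronal, 0.443 and 0.869 in the horizontal and 0.258 and 0.526 in the sagittal. Hbb-bh1 had values between 0.293 and 0.456 over 22 arrays, and within series between 0.469 and 0.582 in the coronal, -0.205 and 0.478 in the horizontal and -0.443 and 0.019 in the sagittal. Which of the embryonic genes ran closer to the adult members thus differed between series. Neither embryonic gene passed any position test in the main fit. After normexp background correction Hbb-y passed along all 3 series, with adjusted p-values of 0.0458, 0.0274 and 0.0209 in limma for the coronal, horizontal and sagittal series. In that order its linear changes were -0.10, 0.03 and 0.83, and 9211, 2046 and 8093 of all probes passed.

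**Figure D4:**
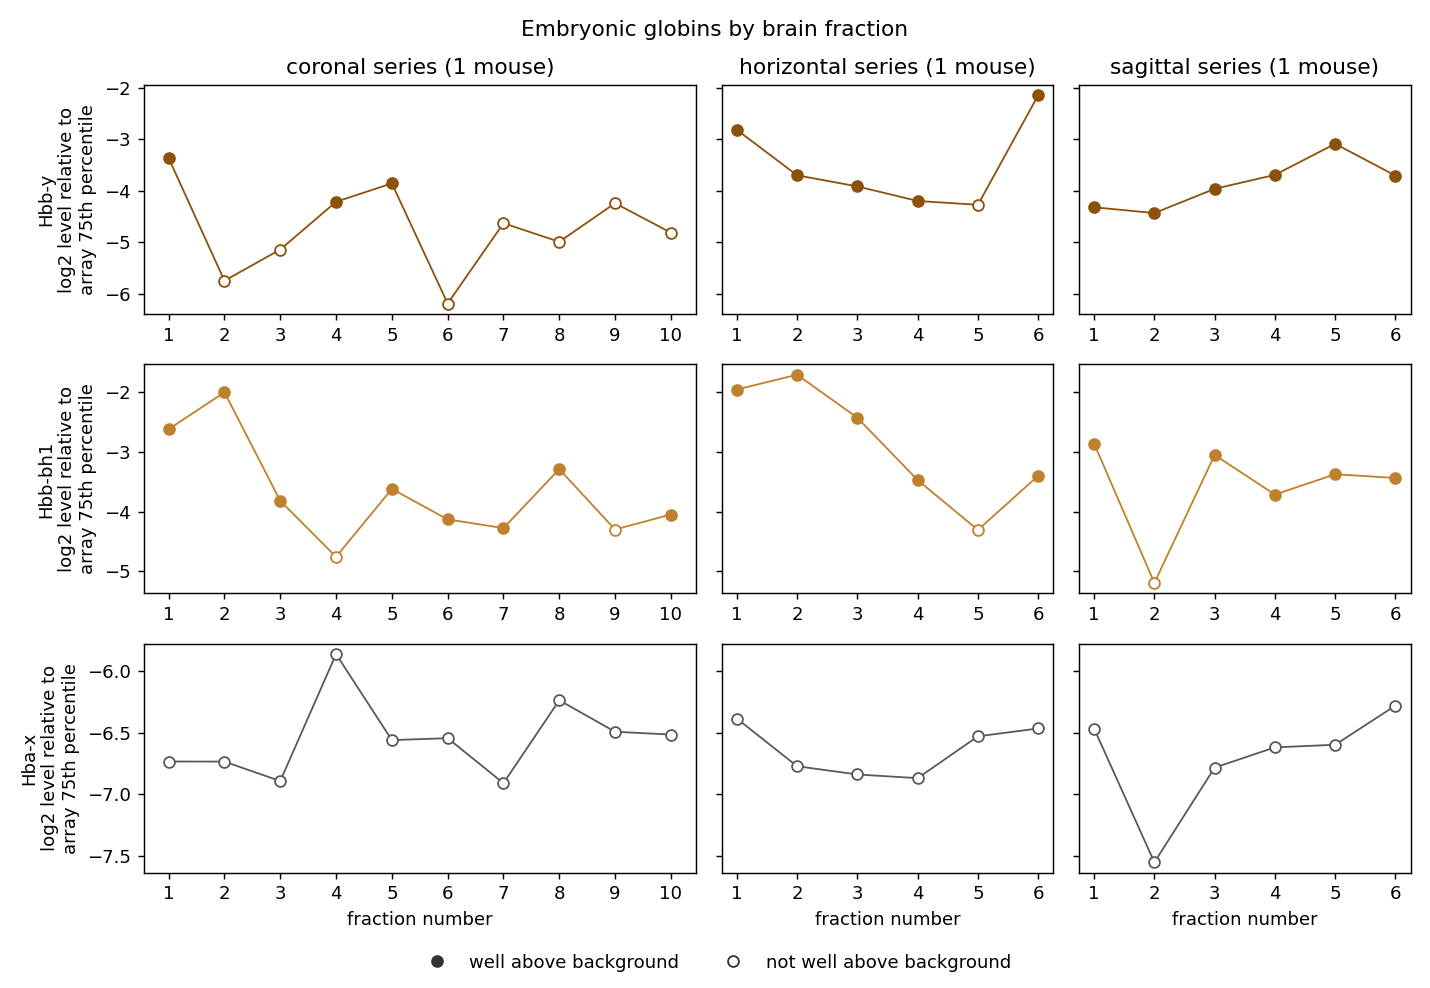
Log2 level of Hbb-y, Hbb-bh1 and Hba-x relative to the array's 75th percentile in each fraction of the 3 series. Filled points are well above background on that array and open points are not. Hba-x has open points throughout, Hbb-y has 14 filled points and Hbb-bh1 has 18.

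The blood content of the 3 brains was compared through the same levels. The mean of the 4 adult globins was 4.30 ± 0.80 (SD over 10 fractions) in the coronal, 5.28 ± 0.55 (6 fractions) in the horizontal and 4.56 ± 0.75 (6 fractions) in the sagittal brain, on the log2 level scale. The ranges overlapped, from 3.45 to 5.45, from 4.65 to 6.10 and from 3.73 to 5.75. For all 8 tested members the horizontal brain had the highest mean and the coronal brain the lowest, so the order was horizontal, sagittal, coronal in each. That order was held by 24.1% of all probes tested, and the 6 adult members are not independent of each other. Hbb-bt, for example, had means of 5.42 ± 0.55, 4.73 ± 0.91 and 4.18 ± 0.82.

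None of the 8 members passed the limma F test of series means, where 0.00757% of all probes did, that is 3 probes. At an unadjusted p under 0.05, Hbb-bt (0.0161) and Hbb-y (0.0118) passed, among 10.2% of all probes, and their adjusted p-values were 0.372 and 0.344 in limma. With the position terms in the fit, which takes the change along each series out of the spread, 5 of the 8 passed, where 8.14% of all probes did. The 5 were Hbb-bt (adjusted p 0.0166), Hba-a1 (0.0322), Hba-a2 (0.0399), Slc4a1 (0.0473) and Hbb-bs (0.0493), all by limma. In that fit the coronal mean minus the horizontal mean was -1.24 ± 0.23 (SE) for Hbb-bt and -0.84 ± 0.19 for Hba-a1.

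Each series was 1 mouse and 1 plane of section, and the horizontal arrays had a slide to themselves, so mouse, plane and slide cannot be told apart there. Slide 3 held coronal fractions 9 and 10 and all sagittal fractions. With slide as a block, sagittal minus coronal was 0.90 ± 0.68 for Hbb-bt and 0.83 ± 0.52 for Hba-a1, with adjusted p-values of 0.880 and 0.817 in limma. That contrast sets the 6 sagittal fractions against coronal fractions 9 and 10 alone, which were among the low ones, so series and position cannot be told apart in it. Without the block and with position terms, coronal minus sagittal was -0.55 ± 0.23 for Hbb-bt and -0.10 ± 0.19 for Hba-a1, with adjusted p-values of 0.188 and 0.867 in limma. Without scaling, the horizontal mean was above the sagittal mean for 6 of the 8 members, and for all 8 under the other scalings.

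Other genes of the red cell were described from lists. Of the 12 genes of the heme pathway tested besides Alas2, all were above background on all 22 arrays, and 1 changed along the coronal series, Cpox, the coproporphyrinogen oxidase, which fell by 1.11 ± 0.28 (adjusted p 0.0295, limma), where 7.43% of all probes passed with a falling term. Cpox also rose along the horizontal series, by 1.33 ± 0.32 (adjusted p 0.0498, against 3.94% of all probes with a rising term), and no heme gene passed along the sagittal series. The median linear change of the list was -0.20 in the coronal series, against -0.14 for all probes. The list mean had an r with the adult globin mean of 0.37 over 22 arrays, and of 0.46, 0.41 and 0.92 within the coronal, horizontal and sagittal series. Alas1, the form of the enzyme used in other tissues, did not pass along any series.

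Among genes of the red cell membrane and skeleton, Rhag, Kel and Epb42 were not above background often enough to be tested, each on at most 1 of 22 arrays. Of the 12 tested, 6 passed along the coronal series, 3 with a rising and 3 with a falling linear term, against 12.4% and 7.43% of all probes. The former were Add2, Tmod1 and Dmtn, and the latter were Rhd, Epb41 and Ank1, of which Add2, Dmtn, Epb41 and Ank1 are also made by neurons. Along the sagittal series Ank1 and Sptb fell, with linear changes of -1.50 ± 0.30 and -1.77 ± 0.52 (adjusted p 0.00295 and 0.0397, limma), where 2.91% of all probes fell. Along the horizontal series 1 gene of the list passed with a rising term, against 3.94% of all probes. No gene of this list had an r with the adult globin mean above 0.8, the highest being 0.443. The list mean had an r of -0.43 over 22 arrays. Within the coronal, horizontal and sagittal series it was -0.23, -0.27 and -0.40.

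Of the genes of the red cell cytosol, 17 were tested, and along the coronal series 1 rose and 1 fell, against 12.4% and 7.43% of all probes, with a median linear change of 0.06 over the list. The gene that fell was Car2, a carbonic anhydrase, by 0.92 ± 0.22 (adjusted p 0.00630, limma). Along the sagittal series Ftl1 and Fth1, the ferritin chains, and Prdx2, a peroxiredoxin, rose by 1.29 ± 0.23, 1.204 ± 0.27 and 1.01 ± 0.28, where 7.55% of all probes rose. Along the horizontal series Fth1 and Ftl1 passed (adjusted p 0.0214 and 0.0449, limma) with linear terms of -0.87 ± 0.25 and -0.41 ± 0.22, where 2.63% of all probes passed with a falling term. Both followed a curve, highest in fraction 1 and lowest in fractions 4 and 5 respectively. Without horizontal fraction 1, only 9 probes of the whole table passed along that series. Trim10 and Trim58, made late in red cell formation, were above background on 3 and 1 arrays.

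Of the transcription factors of red cells and of globin switching, Gata1 was above background on 1 array and Klf1 on 5. Of the 12 tested, Bcl11a rose along the coronal series by 2.78 ± 0.47 (adjusted p 0.00256, limma), and Zfpm1 and Myb fell by 1.08 ± 0.21 and 3.01 ± 0.78, against 12.4% of all probes rising and 7.43% falling. Bcl11a is known as a repressor of embryonic globins and is also expressed in neurons. Along the sagittal series Zbtb7a and Sox6 fell by 1.005 ± 0.23 and 1.76 ± 0.46, against 2.91% of all probes falling, and no gene of the list passed along the horizontal series. Lmo2, also expressed in blood vessels, had the highest r with the adult globin mean in the list, 0.815, and passed no position test.

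Markers of other blood cells were read beside the adult globins. The mean of 12 neutrophil markers had an r of 0.80 with the adult globin mean over 22 arrays, and of 0.82, 0.62 and 0.88 within the coronal, horizontal and sagittal series. S100a8, S100a9 and Stfa1, made in large amounts by neutrophils, had r values of 0.839, 0.858 and 0.857, the only 3 of the 12 above 0.8. Mmp9, Elane and Prtn3 had the lowest, 0.029, 0.051 and 0.124. None of the 12 passed along the coronal or horizontal series. Along the sagittal series 4 of 12 rose, where 7.55% of all probes did, S100a8 by 5.07 ± 1.05 (adjusted p 0.00773, limma), Stfa1 by 4.73 ± 1.11, S100a9 by 4.69 ± 1.12 and Camp by 1.31 ± 0.58. Without sagittal fraction 6, only 2 probes of the whole table passed along that series.

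The summed level of the 12 neutrophil markers, on the linear scale where the 75th percentile of an array is 1, ran from 2.21 to 4.29 in the coronal, from 3.07 to 10.4 in the horizontal and from 1.99 to 20.1 in the sagittal series. Its highest values were in horizontal fraction 1 and sagittal fraction 6. Those are fractions where the adult globins were highest too. Ngp and Retnlg, also neutrophil markers, were above background on 4 and 7 arrays. Of 9 platelet markers tested, 1 rose and 2 fell along the coronal series, against 12.4% and 7.43% of all probes. Along the horizontal series 1 rose and 1 fell, against 3.94% and 2.63% of all probes, and none passed along the sagittal series. Their mean had an r of 0.40 with the adult globin mean over 22 arrays. Within the coronal, horizontal and sagittal series r was 0.09, 0.50 and 0.37. Ppbp was above background on 0 arrays. Pf4 was above background but also occurs in border macrophages. The mean of 10 lymphocyte markers had an r of 0.65 with the adult globin mean over 22 arrays, and of 0.37, 0.41 and 0.83 within the coronal, horizontal and sagittal series. Of those 10, Lck rose and Cd3g fell along the coronal series and Cd3e rose along the sagittal series, where 12.4% and 7.43% of all probes rose and fell and 7.55% rose.

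Vessel and border markers moved with the adult globins in part. In the sagittal series the r of the marker mean with the adult globin mean was 0.89 for 14 endothelial, 0.90 for 9 meningeal fibroblast and -0.87 for 7 neuron markers. In the coronal series the same values were 0.15, 0.23 and -0.63, and in the horizontal series 0.54, 0.55 and -0.22. For 8 oligodendrocyte markers r was 0.94 in the coronal, -0.36 in the horizontal and -0.03 in the sagittal series, and 0.25 over 22 arrays. For 8 choroid plexus markers r was 0.06, -0.45 and 0.80 in the same order, and 0.05 over 22 arrays. Of these, 3 fell along the coronal series, against 7.43% of all probes. The summed endothelial level ran from 44.5 to 78.6 in the coronal, from 44.2 to 107.1 in the horizontal and from 46.0 to 145 in the sagittal series, and its highest was in sagittal fraction 6. The summed meningeal level ran from 41.5 to 136, from 38.4 to 220 and from 45.7 to 116, with its coronal peak in fraction 4 and its horizontal peak in fraction 6. Along the sagittal series 3 of 14 endothelial markers rose, Cldn5 by 1.31 ± 0.33, Vwf by 1.47 ± 0.36 and Slco1a4 by 0.87 ± 0.22 (adjusted p 0.0212, 0.0265 and 0.0244, limma). Of 9 meningeal markers Lum rose, by 2.05 ± 0.47 (adjusted p 0.0141), where 7.55% of all probes rose. Along the horizontal series 3 endothelial, 3 meningeal and 3 pericyte or smooth muscle markers passed with a rising term, against 3.94% of all probes. Of 10 pericyte and smooth muscle markers only Higd1b rose along the sagittal series and 2 passed with a rising term along the coronal series, where 12.4% of all probes did. The sagittal median linear change of that list was -0.28, and the r of its mean with the adult globin mean there was -0.36. Their part in the levels of the red cell genes was not tested.

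**Figure D5:**
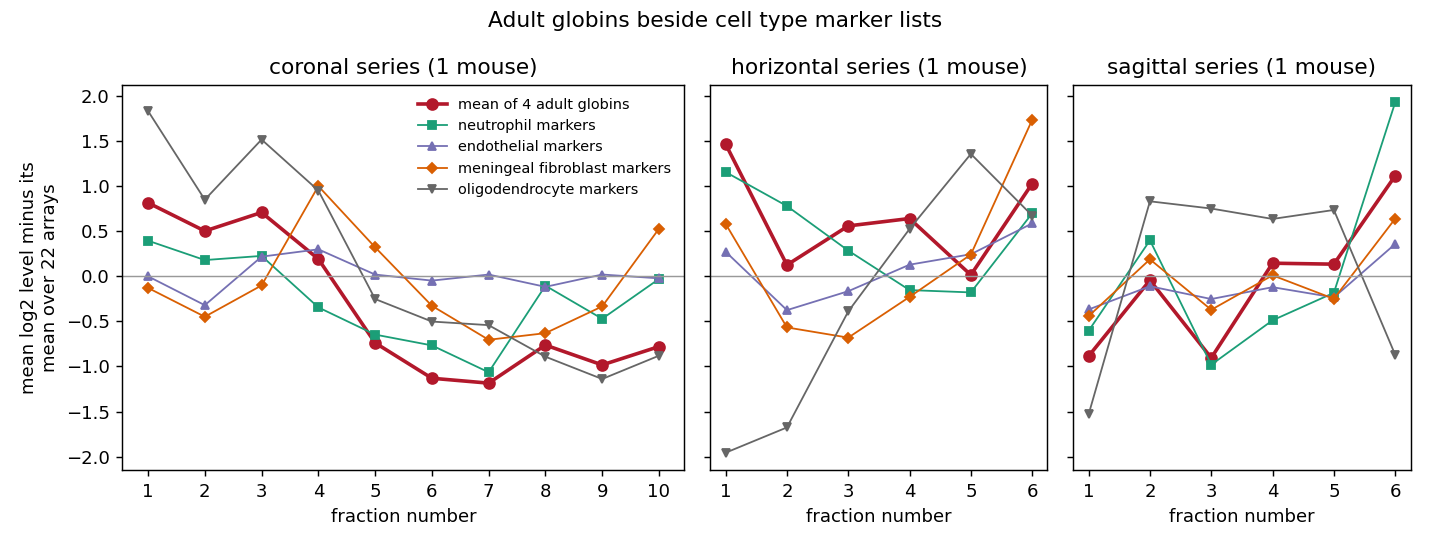
Mean log2 level of the 4 adult globins and of the neutrophil, endothelial, meningeal fibroblast and oligodendrocyte marker lists in each fraction, each minus its mean over 22 arrays, against fraction number. The adult globin line runs with the oligodendrocyte line in the coronal series, and in sagittal fraction 6 it is at its sagittal highest together with the neutrophil, endothelial and meningeal lines.

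Markers of position were read along the coronal series. Hoxa5, Hoxb5 and Hoxc5, expressed in the hindbrain and spinal cord, were highest in coronal fraction 1 and passed with a falling linear term, and Gabra6 of cerebellar granule cells did so too, with its highest level in fraction 2. Dlx2 of the forebrain passed with a rising term and was highest in fraction 10. These genes were well above background in 4 to 7 of the 10 coronal fractions, so no size of change is given. The coronal fractions with the highest adult globins lay toward the end where these Hox genes were highest. In the horizontal series Avp, a hypothalamic hormone, was highest in fraction 6.

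The genes whose levels were most like those of each member were sought by Pearson r over 22 arrays among 16683 other genes, as a description. Hbb-b2 was first for Hba-a1 (0.903), Hbb-bt (0.975) and Hbb-bs (0.958), and Uqcc3 was first for Hba-a2 (0.942). The probe of Hbb-b2 can bind RNA of Hbb-bt and Hbb-bs, so its likeness to them may be that of the members themselves. The next were Nudt14 (0.885) and Uqcc3 (0.878) for Hba-a1, Nudt14 (0.931) and 1810037I17Rik (0.925) for Hba-a2, Commd1 (0.940) and BC028528 (0.934) for Hbb-bt, and Commd1 (0.950) and Tst (0.921) for Hbb-bs. For Alas2 they were Decr1 (0.892), Smim1 (0.884) and Bcl7c (0.876). For Slc4a1 they were Stfa1 (0.932), Cox4i1 (0.931) and Ctla2b (0.925).

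For the embryonic members the likest genes were others. Hbb-bh1 had Vmn1r52 (0.924), Speer4f1 (0.922) and Hormad1 (0.919), of which the last pair were above background on 7 arrays each. Hbb-y had Gatm (0.766) and Amy1 (0.748), and no gene above 0.85. The number of genes with an r above 0.85 was 10 for Hba-a1, 99 for Hba-a2, 179 for Hbb-bt, 85 for Hbb-bs, 15 for Alas2, 186 for Slc4a1 and 213 for Hbb-bh1. Hba-x, never above background, had no r above 0.586.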

How the data were processed

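RNA of 22 brain fractions was labelled in 1 colour and hybridised to Agilent SurePrint G3 arrays. Per the file headers, the authors made background-subtracted intensity values with Agilent Feature Extraction 10.10.1.1 on a design built on mm9. The authors also deposited a log2 table, of whose values 99.9% lay within 0.02 of the levels used here, and 0 of its columns were left unused. Here, control and outlier spots were dropped, spots of 1 probe averaged, and log2 intensity minus the array's 75th percentile taken for 55600 probes. Names came from RefSeq, matching 26553 of 28087 RefSeq probes. No spot was saturated.

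Limma 3.58.1 (R 4.3.3) was fitted to all 39621 tested probes over all arrays, with an intercept, linear and quadratic slab position per series, or series alone. Adjusted p-values are Benjamini-Hochberg with a threshold of 0.05. The spread is that of single arrays about their fitted curve, may be technical, and holds none between animals. The number of arrays limits the precision. On simulated data with 200 changed probes, a linear change of 3 log2 was recovered for 65.5% in the coronal, 56.5% in the horizontal and 55% in the sagittal series, and a series shift of 2 log2 for 77%.

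The members and lists were chosen with earlier results of these data known. Named were all members, up to 8 list genes per list past a test, and the 3 genes most like each member. Alternatives covered background correction, scaling, filter, spike-in, slide, variance model, probe, curve and left-out fractions. For normexp (offset 50), the median spot signal replaced the planned mean signal, which the files used here do not hold. Some listed genes are not reported here.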

Additional observations from a re-analysis of the deposited data

Results flagged for a closer look

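Over 27 sets of levels (9 members in 3 series), 2 held a fraction far from the others by Dixon's test, which chance does in about 1 of 20 sets. Slc4a1 in sagittal fraction 6 stood at -1.29 on the log2 level scale, and its gap to the next fraction was 0.718 of the range, above the critical value of 0.625. That fraction pooled slabs 7 to 9 and also had the highest levels of the adult globins in its series. Hbb-bh1 in sagittal fraction 2 stood at -5.20, not well above background, with a gap of 0.634 of the range.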

How the results depend on the processing

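No paired analysis was possible because the fraction numbers shared by the series are positions in different planes and mark no shared animal or batch. Along the coronal series 6 members passed, against 3 with arrays centred on their median, 2 with the series fitted alone and 1 with the coronal arrays of slide 1 only (chosen after seeing the data), and 5 to 6 when a fraction was left out. Other alternatives gave 4 to 7. Of all probes, 5672 passed with median centring, 634 with the series alone and 2071 with slide 1 only. Along the sagittal series 3 passed, against 0 with median centring, quantile normalization, no scaling, arrays with the spike-in slope in range, the linear term only or the series alone, 1 without the filter on dim probes, and 0 to 3 when a fraction was left out. It was 0 without sagittal fraction 6 and 1 without coronal 5 or 9, horizontal 3 or sagittal 1, 3, 4 or 5. Of all probes, 1 passed along this series on the arrays in range and 2 without sagittal fraction 6. With the linear term only 4 did, and with the series alone 0. Along the horizontal series 0 passed, and 1 with normexp. For series means 0 passed, and 5 with position terms. Leaving out a fraction gave 0 for both. The cause of these moves was not tested, beyond the fewer arrays in the smaller fits. No called direction turned under any alternative. Median centring moved the median linear change of all probes from -0.14 to 0.02 along the coronal and from -0.20 to 0.31 along the horizontal series, and no scaling moved the sagittal one from -0.05 to -0.95. Over the whole table, the probes called ranged over all alternatives from 634 to 10710 along the coronal series (7850 in the reported fit), from 0 to 6529 along the horizontal (2604), from 0 to 8093 along the sagittal (4145) and from 0 to 3224 for series means (3). Levels under about -3 lie near background, where the spread between spots was largest.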
